A study of Mus musculus with 48 samples.

Results

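The mitochondrial ribosomal protein genes described here were the protein-coding mouse genes whose symbols begin with Mrpl or Mrps followed by a number. The annotation held 78 such genes, and 78 of 78 were among the 47643 genes listed in the deposited counts. Of these, 51 encode proteins of the large subunit and 26 encode proteins of the small subunit. The remaining gene, Mrps36, carries the name but encodes a subunit of the 2-oxoglutarate dehydrogenase complex. The libraries came from the dorsal hippocampus of Aldh1l1:L10a-eGFP mice, in which the Aldh1l1 promoter, active in astrocytes, drives ribosomal protein L10a fused to green fluorescent protein. RNA on tagged polysomes was pulled down with an antibody to the tag (translating ribosome affinity purification). For each of 3 animals the labels give a whole-astrocyte preparation, called Astro, and a preparation of perisynaptic astrocytic processes, called PAP, the fine astrocyte branches that contact synapses. The Astro and PAP groups both carried the transgene, and their labels name no other allele, agent, age or sex. Each of the 6 resulting libraries was the sum of 8 technical replicates. No library without the transgene was analysed here, so RNA carried through the pulldown without a tagged ribosome was not measured.

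Mitochondria keep their own ribosomes, which translate the few proteins encoded by mitochondrial DNA, all of them parts of the respiratory chain and ATP synthase. The ribosomal RNAs of these particles come from the mitochondrial genome, whereas every mitochondrial ribosomal protein is encoded in the nucleus, translated on cytosolic ribosomes and imported. A polysome pulldown through a cytosolic ribosomal protein therefore reads the mRNAs of these genes while they are translated in the cytosol. Some of the proteins descend from bacterial ribosomal proteins, and others are additions found only in mitochondria. In astrocytes, mitochondria extend into the branches near synapses.

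The Astro libraries held 18707844 to 20293538 counts and the PAP libraries 1829962 to 2980984. A gene was treated as above the counting floor when it had more than 3 counts, which corresponds to 0.152 to 0.176 CPM in Astro and 0.991 to 1.55 CPM in PAP. CPM here and throughout, the counts relative to library size, were scaled by trimmed means (TMM). Markers of astrocytes were high in both groups, with 12 markers summing to 28349.8 to 41161 CPM in Astro and 4748 to 18786 CPM in PAP, and 5 of the 12 were called lower in PAP. Neuronal markers summed to 669.5 to 1203 CPM in Astro and 465 to 1340.2 CPM in PAP, with 1 of 10 called higher and 1 lower, and oligodendrocyte markers to 794 to 853 and 498 to 1029.6 CPM. Microglial markers summed to 39.2 to 89.9 CPM in Astro and 24.1 to 188 CPM in PAP. Of 7 tested, 0 were called higher and 3 lower, with Cx3cr1, P2ry12, Tmem119 and Aif1 at 0 in every PAP library. Endothelial markers stayed at or below 12.4 CPM in each library, with Cldn5, Cdh5 and Emcn at 0 in PAP. Markers of B and plasma cells summed to 115 to 122 CPM in Astro and 2116 to 4830.5 CPM in PAP. On that list, 5 of 6 markers tested were called higher in PAP, while Cd79a was at 0 in every PAP library. The part of these marker differences in the results on the ribosomal genes was not tested. In such pooled tissue samples, fewer cells of a type and less RNA per cell cannot be told apart.

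Mitochondrial ribosomal protein mRNAs were present in both preparations at a nearly equal share of the counts. They took 0.726%, 0.702% and 0.806% of counts in the Astro libraries of animals 1, 2 and 3, and 0.853%, 0.821% and 0.748% in the PAP libraries. The group means were 0.745% ± 0.0543 (SD, n = 3) and 0.807% ± 0.054 (SD, n = 3). Within animals the PAP share minus the Astro share was 0.128, 0.119 and -0.0579 percentage points, so the sign differed between animals and the ranges of the groups overlapped. Wilson 95% intervals were narrow, from 0.698% to 0.706% for Astro of animal 2 and from 0.84% to 0.867% for PAP of animal 1. They cover counting error only, not the spread between animals, and treat reads as independent although the reads carried no stated molecular identifiers. The mean difference was 0.0627 percentage points over all counts. It was 0.172 points (0.773% and 0.945%) when the denominator was restricted to protein-coding genes other than those of the cytosolic ribosome.

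The large-subunit genes accounted for 0.515% ± 0.0413 of the Astro counts and 0.557% ± 0.0492 of the PAP counts (SD, n = 3 each). Genes of the small subunit took 0.227% ± 0.0131 and 0.248% ± 0.00808. The small-subunit share was above its Astro partner by 0.0352, 0.025 and 0.00225 percentage points in the 3 animals, and the large-subunit share by 0.0928, 0.0947 and -0.0597 points. Both shares were thus higher in PAP in animals 1 and 2. In animal 3 the small-subunit intervals overlapped (Wilson 95%, 0.24% to 0.244% in Astro and 0.239% to 0.25% in PAP).

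The genes of the cytosolic ribosome, read in the same libraries, took a far larger share in PAP. These 85 genes received 0.918%, 0.819% and 0.88% of the Astro counts and 11%, 9.67% and 6.95% of the PAP counts. For each count on a mitochondrial ribosomal protein gene there were 1.27, 1.17 and 1.09 counts on cytosolic ones in the Astro libraries and 12.9, 11.8 and 9.29 in the PAP libraries. The lowest PAP ratio lay above the highest Astro ratio in this description of summed levels, for which no p-value was computed.

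**Figure D1:**
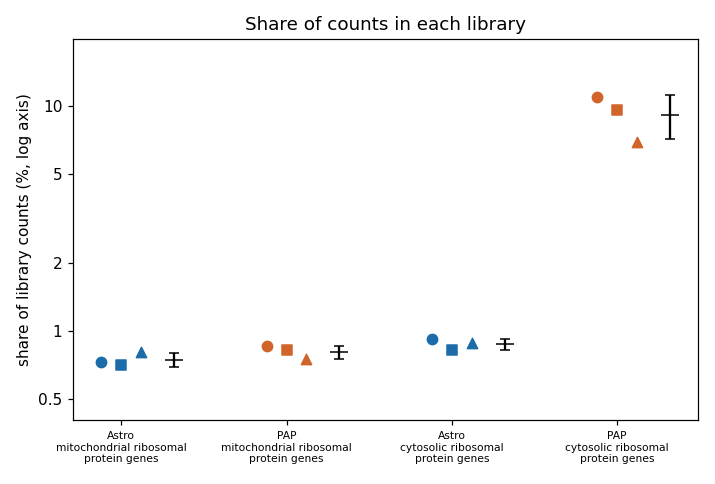
Share of each library's counts (percent, log axis) on mitochondrial and on cytosolic ribosomal protein genes in Astro and PAP, with a coloured symbol for each animal (circle, square and triangle for animals 1, 2 and 3) and a black dash and bar for the mean and SD. The mitochondrial shares overlap, with Astro points at 0.702% to 0.806% and PAP points at 0.748% to 0.853%, whereas the cytosolic share runs from 0.819% to 0.918% in Astro and from 6.95% to 11% in PAP.

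All 78 genes were above the floor in every Astro library. In PAP, 77, 72 and 76 were above it in animals 1, 2 and 3, and 72 (92.3%) were above it in all 3. Over all genes tested, 5783 of 14618 (39.6%) were above the floor in all 3 PAP libraries, and of the cytosolic ribosomal protein genes 82 of 82 tested were. These sets were not matched for level. The 78 genes had a mean of at least 13.7 CPM in Astro, with a median of 90.4 CPM. With every library thinned to 1829962 counts, 71 of the mitochondrial genes were above the floor in all PAP libraries, and 78 in each Astro library. In a split by origin, which counts Mrps18c with the bacterial relatives and Mrps18a and Mrps18b, diverged relatives of the same bacterial protein, with the mitochondrion-specific genes, genes with bacterial relatives were above it in all PAP libraries in 45 of 46 cases (97.8%) and mitochondrion-specific genes in 26 of 31 (83.9%).

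The 6 genes that were missing or nearly so in a PAP library were each well counted in Astro. Mrpl39, a large-subunit protein found only in mitochondria, had 1633, 1184 and 1458 counts in Astro and 0, 0 and 140 in PAP. Mrps31, of the small subunit, had 566, 377 and 387 counts in Astro and 26, 0 and 0 in PAP. Mrpl16, whose bacterial relative lies near the tRNA-binding centre of the large subunit, had 1149, 631 and 1015 counts in Astro and 141, 1 and 0 in PAP. These 3 genes were above the floor in a single PAP library, which was not the same library for each. Mrpl50 had 173, 1 and 92 counts in PAP against 2197 to 2999 in Astro. Mrpl58, which has kept the activity of a peptidyl-tRNA hydrolase and rescues stalled mitochondrial ribosomes, had 300, 3 and 183 in PAP against 1943 to 2197 in Astro. Mrps22 had 50, 0 and 63 in PAP against 491 to 591 in Astro. All 6 genes were at or under the floor in PAP of animal 2, and the last 3 in that library alone. The fold changes of the 6 were not called (adjusted p from 0.434 to 0.798, edgeR quasi-likelihood test).

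**Figure D2:**
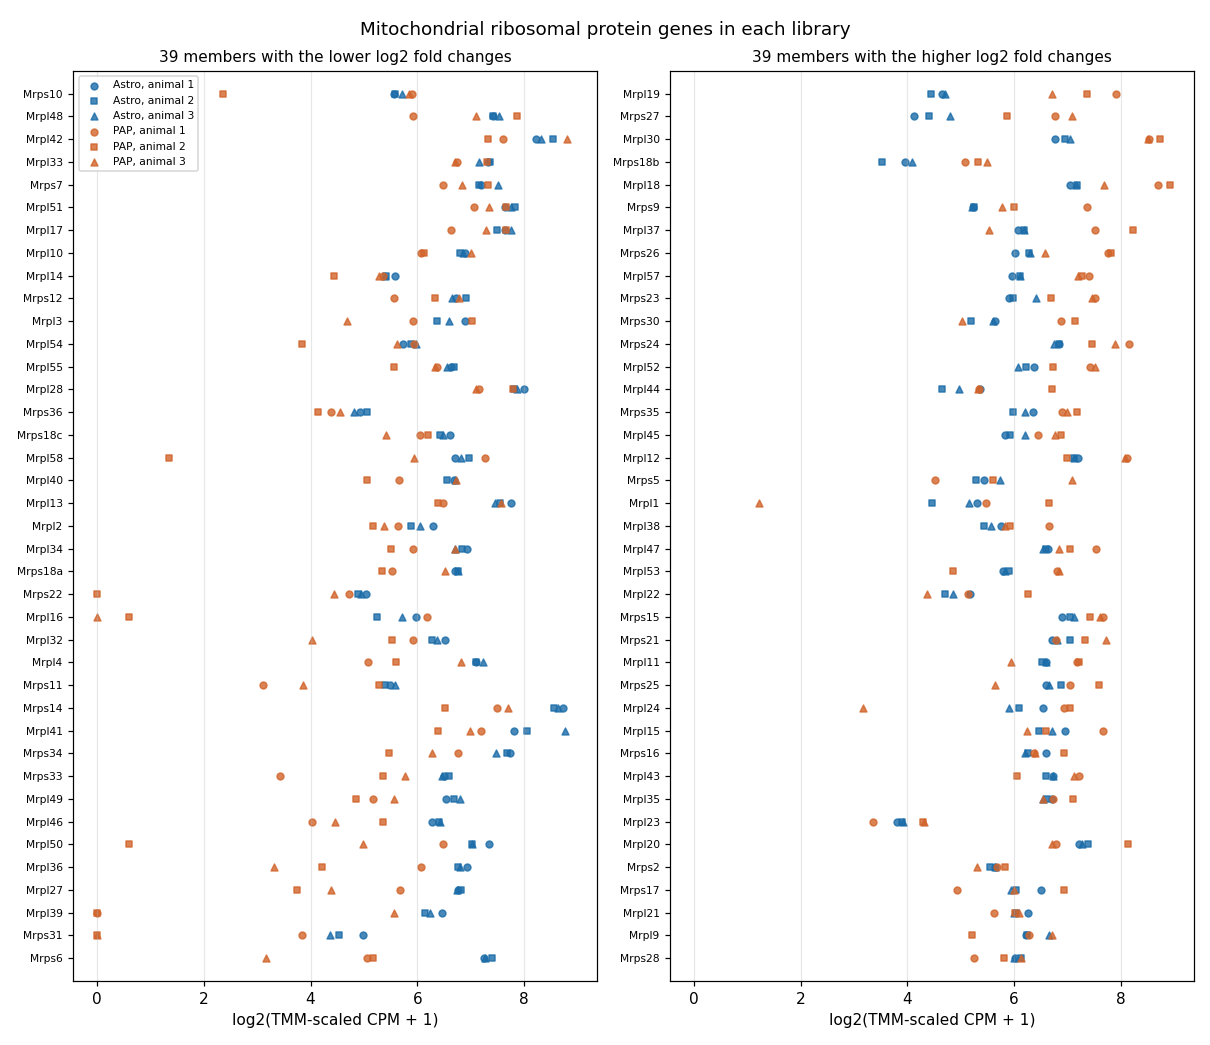
Level of each of the 78 genes in the 6 libraries, as log2 of TMM-scaled CPM plus 1, ordered by fitted fold change, with colour for the preparation and symbol shape for the animal. The Astro points of a gene lie close together, whereas the PAP points of many genes are spread widely, with Mrpl39 and Mrps31 at 0 CPM in 2 PAP libraries each.

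Gene by gene, PAP was compared with Astro by edgeR's quasi-likelihood test over the 14618 genes that passed the filter on low counts, with Benjamini-Hochberg adjustment over all of them. The p-values rest on a single spread per gene, estimated between animals over both groups together. The spread itself differed, with a median coefficient of variation of 8.79% in Astro and 41.4% in PAP for the 78 genes. All 78 genes were tested, each with enough counts in Astro to pass. At an adjusted p under 0.05, 4 were called higher in PAP (Mrpl30, Mrpl19, Mrps27 and Mrpl18) and 2 lower (Mrps6 and Mrps14). Among all genes tested, 5.92% were called higher and 15.4% lower. The 4 of 78 called higher is close to that background. The background of genes called lower includes genes that passed the filter through Astro alone. It was 8.19% when genes averaging under 100 counts were left out, with 0 of the 78 called lower. That average was taken over all libraries, so genes could pass it through Astro alone as well. At an unadjusted p under 0.05, 9 of the 78 were higher and 7 lower, while 30.9% of all genes passed in either direction. With the animal as a replicate block, 0 of the 78 were called in either direction by edgeR. Without adjustment that fit gave 4 higher and 6 lower at a p under 0.05, against 23.3% of all genes in either direction. Under the block, 0.876% of all genes were called higher and 0.0342% lower. Leaving out Astro of animal 1, 2 or 3 also left 0 called in each direction, with 6 higher and 3 lower at an unadjusted p under 0.05 each time (21.2%, 21.3% and 22.2% of all genes in either direction). Leaving out PAP of animal 1, 2 or 3 gave 2, 7 and 7 called higher, where 5.75%, 6.74% and 7.57% of all genes were. It gave 6, 3 and 8 called lower, where 19.6%, 17.8% and 20.2% of all genes were. DESeq2's Wald test called 14 higher and 7 lower, and 11.5% and 23.6% of all genes.

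The median log2 fold change of the 78 genes was -0.28 (quartiles -0.69 and 0.60), with 35 above 0 and 43 below. The median over all genes tested was -0.53. Of the 78, 49 (62.8%) lay within 1 log2 unit of 0, as did 37.6% of all genes tested and 3.66% of cytosolic ribosomal protein genes. The set of all genes tested includes 2408 that were at or under the floor in every PAP library, and the difference in these shares was not tested. The median of the log2 ratio within an animal was -0.28, -0.04 and -0.25 in animals 1, 2 and 3, and over all genes tested it was -1.05, -1.26 and -0.96. With the replicate block the medians were -0.37 for the 78 genes and -1.63 for all genes. The Astro and PAP values did not overlap in 16 genes that were higher in PAP and 23 that were lower, and overlapped in 39. Over all genes tested, 10.9% were higher and 35.1% lower without overlap. Scaling by library size alone moved the median of all genes by 0.15 and that of the 78 genes to -0.13. The distance between the 2 medians was 0.25 with TMM and 0.24 with library size, but it depended on other settings. It was 1.26 with the replicate block, 1.24 with limma voom, 0.60 without a filter on low counts and 0.14 at equal depth. Without Astro of animal 1, 2 or 3 it was 0.10, 0.15 and 0.18, and without PAP of animal 1, 2 or 3 it was 0.70, 0.58 and 0.58.

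For the cytosolic ribosome, 76 of 82 genes tested were called higher in PAP and 0 lower, with a median log2 fold change of 3.11. With the replicate block 53 were called higher. The lowest value was -0.03, for Rpl22l1, and 79 of the 82 were higher in PAP without overlap. For the share of genes called, the 2 kinds of ribosome thus stood at 4 of 78 and 76 of 82 in the same fit.

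**Figure D3:**
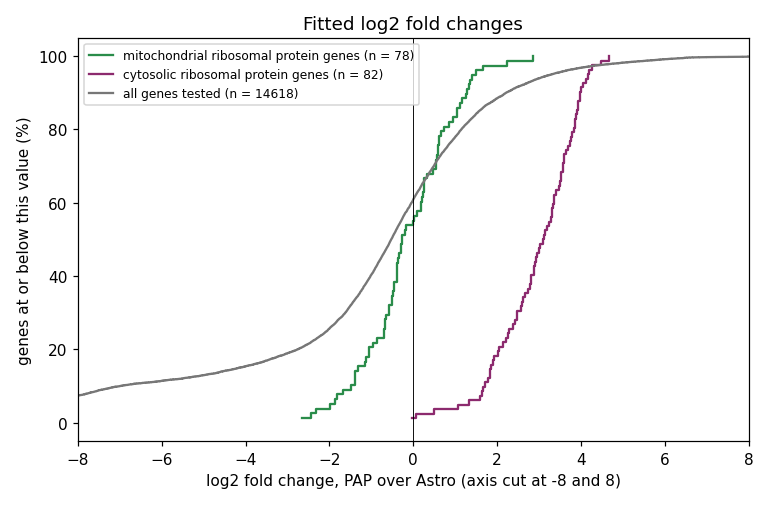
Cumulative distribution of fitted log2 fold changes, PAP over Astro, for the 78 mitochondrial ribosomal protein genes, the 82 cytosolic ribosomal protein genes tested and all 14618 genes tested, with the axis cut at -8 and 8. The mitochondrial curve crosses the middle at -0.28 and is steeper than that of all genes, whose middle is -0.53, while the cytosolic curve is centred on 3.11.

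Among the large-subunit genes, 3 of 51 were called higher and 0 lower, where 5.92% and 15.4% of all genes tested were. The median log2 fold change of these large-subunit genes was -0.30. Coordinates of genes are those of GENCODE M21 on GRCm38 (mm10). Mrpl30 (ENSMUSG00000026087, chr1:37890477-37898535, + strand) encodes the relative of a bacterial large-subunit protein. It had 2012, 2098 and 2602 counts in Astro and 726, 825 and 1096 in the shallower PAP libraries. The levels were 108, 123 and 132 CPM in Astro and 370.4, 425 and 362 CPM in PAP, so every PAP library was above every Astro library with little spread on either side. The log2 fold change was 1.67 ± 0.27 (SE, adjusted p = 0.0208, edgeR), 3.19-fold.

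Mrpl19 (ENSMUSG00000030045, chr6:81957851-81965958, − strand), another protein with a bacterial relative, which sits where the subunits join, had 448, 351 and 493 counts in Astro and 470, 317 and 312 in PAP. Its levels were 24.1, 20.6 and 25 CPM in Astro and 239.8, 163 and 103 CPM in PAP, the PAP values differing more among themselves than the Astro values. The log2 fold change of 2.86 ± 0.50 (SE, adjusted p = 0.0208, edgeR) was the highest of the 78. Its exons overlap those of Gcfc2 on the other strand, which had 7.74, 3.4 and 10.6 CPM in Astro and 51.5, 54.6 and 6.61 CPM in PAP (log2 fold change 2.37, adjusted p = 0.2, edgeR).

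Mrpl18 (ENSMUSG00000057388, chr17:12911349-12916345, − strand), the relative of a bacterial protein that binds a small ribosomal RNA, had 2447, 2462 and 2795 counts in Astro and 807, 935 and 622 in PAP. Levels were 131, 144 and 142 CPM in Astro and 412, 482 and 206 CPM in PAP. PAP of animal 3 was the lowest of the PAP libraries and still above every Astro library. The log2 fold change was 1.40 ± 0.38 (SE, adjusted p = 0.0464, edgeR). Mrpl18 overlaps Tcp1, a subunit of the cytosolic chaperonin, on the other strand. Tcp1 had 149 to 194 CPM in Astro and 1013 to 1141 CPM in PAP, and was itself called higher (log2 fold change 2.68 ± 0.23, adjusted p = 0.00309, edgeR, and 0.039 with the replicate block).

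Among the small-subunit genes, 1 of 26 was called higher and 2 lower, where 5.92% and 15.4% of all genes tested were. The median log2 fold change of these small-subunit genes was 0.00. Mrps27 (ENSMUSG00000041632, chr13:99344786-99415562, + strand), a mitochondrion-specific protein with pentatricopeptide repeats, had 306, 345 and 526 counts in Astro and 212, 112 and 407 in PAP. Levels were 16.4, 20.2 and 26.7 CPM in Astro and 108, 57.7 and 134 CPM in PAP, without overlap. The log2 fold change was 2.24 ± 0.58 (SE, adjusted p = 0.0386, edgeR). It overlaps the non-coding transcript 6430562O15Rik on the other strand, which had a log2 fold change of 2.25 (adjusted p = 0.137, edgeR).

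Mrps6 (ENSMUSG00000039680, chr16:92058270-92112227, + strand), a relative of a bacterial small-subunit protein, had the lowest fold change of the 78 in the fit without the replicate block, but not in the fit with it. There were 2805, 2855 and 3010 counts in Astro and 63, 68 and 24 in PAP, or 151, 168 and 153 CPM against 32.1, 35.1 and 7.93 CPM. All PAP libraries were far below the Astro libraries. The log2 fold change was -2.65 ± 0.66 (SE, adjusted p = 0.0326, edgeR), 6.28-fold lower. Its exons overlap those of Slc5a3, a myo-inositol transporter gene on the same strand, which had 328, 320 and 458 counts in Astro and 3, 8 and 1 in PAP (log2 fold change -3.33, adjusted p = 0.0946, edgeR).

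Mrps14 (ENSMUSG00000058267, chr1:160195215-160202170, + strand), also with a bacterial relative, had 7903, 6464 and 7782 counts in Astro and 350, 177 and 624 in PAP. Levels were 425, 379 and 395 CPM in Astro and 179, 91.2 and 206 CPM in PAP, the highest PAP value lying well under the lowest Astro value. The log2 fold change was -1.33 ± 0.37 (SE, adjusted p = 0.0475, edgeR), 2.52-fold lower. Neither Mrps14 nor Mrpl30 overlaps the exons of another gene.

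Each of the 4 called genes with an exon overlap (Mrpl19, Mrpl18, Mrps27 and Mrps6) had a fold change in the direction of the overlapping partner named here. Gm49711, which also overlaps the exons of Mrps6 on the same strand, was not analysed here. Of the 78 genes, 33 have such an overlap, on the opposite strand in 28 cases. The strand setting of the counting is not given in the sources used here, so reads of the partners may not be separable where exons overlap, and the part of this overlap in the 4 results was not tested. Among the 45 genes without overlap, 1 was called higher (Mrpl30) and 1 lower (Mrps14).

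**Figure D4:**
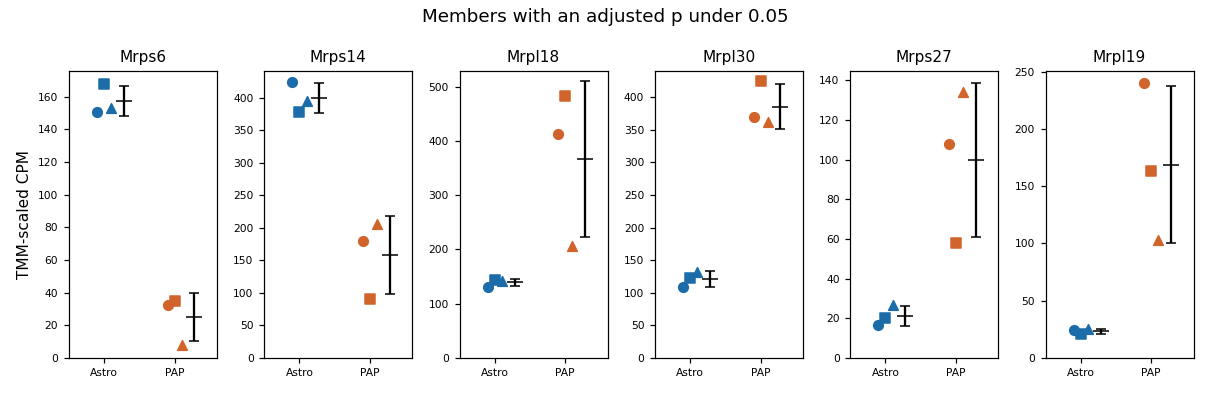
TMM-scaled CPM of the 6 genes with an adjusted p under 0.05 in the Astro and PAP libraries of the 3 animals (circle, square and triangle for animals 1, 2 and 3), with a black dash and bar for the mean and SD and a vertical axis from 0 for each gene. Mrpl30, Mrpl19, Mrps27 and Mrpl18 are higher in PAP in every animal and Mrps6 and Mrps14 are lower in every animal.

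The sequences around the annotated starts are shown for 5 of these 6 genes because their first bases can be set against those of cytosolic ribosomal protein genes, which moved differently in the same libraries. Each line gives, from RefSeq on GRCm38.p6, the 50 bases before the annotated start in lower case and the first 10 transcribed bases in capitals, 5′ to 3′ on the gene's strand. Mrpl30 is at chr1:37890427-37890486 (+), Mrps27 at chr13:99344736-99344795 (+), Mrpl18 at chr17:12916082-12916141 (−), Mrps6 at chr16:92058286-92058345 (+) and Mrps14 at chr1:160195165-160195224 (+).
Mrpl30: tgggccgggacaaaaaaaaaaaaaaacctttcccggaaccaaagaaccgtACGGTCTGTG
Mrps27: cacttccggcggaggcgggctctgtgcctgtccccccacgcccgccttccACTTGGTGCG
Mrpl18: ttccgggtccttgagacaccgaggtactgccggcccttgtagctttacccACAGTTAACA
Mrps6: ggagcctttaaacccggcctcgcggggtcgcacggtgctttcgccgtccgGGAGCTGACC
Mrps14: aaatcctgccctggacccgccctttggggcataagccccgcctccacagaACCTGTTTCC
For contrast, the 3 cytosolic ribosomal protein genes with the largest fold changes among those whose first base is a C followed by at least 4 pyrimidines are shown. They were chosen for this start, which most cytosolic ribosomal protein genes in the table did not have at their annotated start. Larger log2 fold changes, up to 4.66 for Rps2, belonged to cytosolic genes not counted with this start, and the cytosolic upper quartile was 3.67. Whether fold changes differ between genes with and without this start was not tested. They are Rpl14 at chr9:120571467-120571526 (+), Rps6 at chr4:86857358-86857417 (−) and Rps10 at chr17:27635235-27635294 (−), with log2 fold changes of 3.56, 3.49 and 3.40.
Rpl14: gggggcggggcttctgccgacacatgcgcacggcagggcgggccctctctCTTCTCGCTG
Rps6: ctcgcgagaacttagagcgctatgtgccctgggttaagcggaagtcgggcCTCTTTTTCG
Rps10: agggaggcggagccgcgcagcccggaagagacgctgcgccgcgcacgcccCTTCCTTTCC

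The mRNAs of the cytosolic ribosome are known for a 5′ terminal oligopyrimidine tract, a C followed by a run of C and T, through which their translation is controlled together. A C at the annotated start followed by at least 4 pyrimidines was found in 0 of 69 mitochondrial ribosomal protein genes with a RefSeq window, in 14 of 65 cytosolic ones (21.5%) and in 3.01% of 27025 genes in the table. A C at the start, whatever followed, was found in 15.9%, 33.8% and 18.9%. In windows from 250 bases before to 50 after the start, searched on both strands, the letters CCGGAAG of ETS factors stood in 26 of the 69 (37.7%), in 40% of cytosolic and 9.93% of all genes. The palindromic NRF1 motif was in 13 (18.8%), against 9.23% and 5.19%. The YY1 letters AANATGGCG were in 11 (15.9%), against 10.8% and 2.76%, and the SP1 letters GGGCGG in 34 (49.3%), against 61.5% and 38.2%. Matches of different motifs could share bases and were counted separately. Of the genes shown, Mrpl30 held the NRF1 motif and Mrps27 the YY1 letters. The ETS letters were in Mrpl18, Mrps27, Rps6 and Rps10, and the SP1 letters in Mrpl18, Mrps6, Mrps14, Rpl14 and Rps10. Most of these matches lie outside the stretches printed. These matches are descriptions of the letters and were not tested as binding sites.

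Levels between genes were compared per kilobase of exon. In Astro the highest was Mrpl41, a mitochondrion-specific large-subunit protein, at 347 ± 126 CPM per kb (SD, n = 3). It was followed by Mrpl34 at 186 ± 14.2, Mrpl28 at 172 ± 11.2, Mrps21 at 155 ± 19.2 and Mrps14 at 123 ± 7.05 CPM per kb. The first of these varied most, with Astro of animal 3 at 490.0 against 251 and 298 CPM per kb. Its lowest Astro value lay above the highest of Mrpl34 (198). Mrpl34 was above Mrpl28 and Mrps21 in every Astro library, whereas Mrps21 was above Mrpl28 in animal 2 and below it in the others. The median of the 78 genes was 31.4 CPM per kb in Astro and 31.8 in PAP.

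In PAP, the genes with the highest value in their lowest library were Mrps21 (148 CPM per kb), Mrpl18 (147), Mrps24 (119.5), Mrpl30 (112) and Mrps15 (101). Mrps24, with a bacterial relative at the mRNA entry, had 114, 114 and 107 CPM in Astro and 284, 175 and 236 CPM in PAP. All PAP values were higher, and the log2 fold change was 1.05 ± 0.33 with an adjusted p of 0.0694 (edgeR), above the threshold. Mrps15, also with a bacterial relative, had 118, 132 and 139 CPM in Astro and 202, 171 and 195 CPM in PAP (log2 fold change 0.54, adjusted p = 0.295, edgeR). Mrps21 had 103, 131 and 111 CPM in Astro and 109.7, 159 and 210.2 CPM in PAP, and its groups overlapped.

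Of the genes not called, Mrpl57 and Mrpl41 had the lowest adjusted p. Next came Mrps24, higher in PAP, and Mrps34, Mrpl49 and Mrpl27, lower in PAP (adjusted p from 0.0694 to 0.0871, edgeR). Mrpl57, a short mitochondrion-specific protein of the large subunit, had 61.6, 68.1 and 68.3 CPM in Astro and 169, 154 and 146 CPM in PAP, with the smallest spread between PAP libraries of all 78 genes (coefficient of variation 7.47%). Its log2 fold change was 1.25 ± 0.35 with an adjusted p of 0.0515 (edgeR). Mrpl41 had 223, 265 and 435 CPM in Astro and 146, 82.5 and 126 CPM in PAP, and its log2 fold change was -1.38 ± 0.40 with an adjusted p of 0.0578 (edgeR). The values of Mrpl57 and of Mrpl41 did not overlap between the groups.

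The 3 genes Mrps18a, Mrps18b and Mrps18c, relatives of the same bacterial protein, occupy different places in the mitochondrial ribosome, the first in the large subunit and the others in the small. Mrps18a had 104, 108 and 108 CPM in Astro and 44.9, 39.7 and 91.2 CPM in PAP (log2 fold change -0.86, adjusted p = 0.321, edgeR). Mrps18b had 14.6, 10.5 and 15.9 CPM in Astro and 32.7, 39.2 and 43.9 CPM in PAP (1.5, adjusted p = 0.207, edgeR). Mrps18c had 97, 84.8 and 88.1 CPM in Astro and 65.3, 72.7 and 41.6 CPM in PAP (-0.59, adjusted p = 0.479, edgeR). The values did not overlap for any of the 3 genes, with Mrps18b higher and the other two lower in PAP, but none passed the test. Differences between the 3 genes were not tested.

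By origin, the large-subunit genes with bacterial relatives had a median log2 fold change of -0.27 (30 genes, 3 called higher) and the mitochondrion-specific ones -0.30 (21 genes, 0 called). For the small subunit the medians were -0.14 (16 genes, 2 called lower) and 0.55 (10 genes, 1 called higher). Over all genes tested the median was -0.53, with 5.92% called higher and 15.4% lower, and differences by origin were not tested. Mrpl12, the stalk protein that also binds the mitochondrial RNA polymerase, had 138 to 145 CPM in Astro and 277, 127 and 268 CPM in PAP (log2 fold change 0.67, adjusted p = 0.324, edgeR). Mrps12, at the decoding site, had 99.1 to 119 CPM in Astro and 46.4, 79.9 and 109 CPM in PAP (-0.45, adjusted p = 0.61, edgeR). Mrpl45, which helps anchor the particle to the inner membrane, had 55.5 to 72.8 CPM in Astro and 86.7, 116 and 108 CPM in PAP (0.73, adjusted p = 0.315, edgeR). The PAP values of the first of these 3 straddle its Astro values, those of Mrps12 overlap them and those of Mrpl45 lie above. Mrps36 had 27.1 to 32.3 CPM in Astro and 19.9, 16.5 and 22.5 CPM in PAP, without overlap (-0.59, adjusted p = 0.652, edgeR).

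The 78 genes differed little between animals in Astro and much more in PAP. The median coefficient of variation was 8.79% over the 3 Astro libraries and 41.4% over the 3 PAP libraries. With all libraries thinned to the same count total it was 12.8% and 42.2%. In Astro no gene varied by more than 2-fold between its highest and lowest library, and in PAP 49 did. After thinning these numbers were 4 and 49. The spread was larger in PAP for 74 of the 78 genes, the exceptions being Mrpl30, Mrpl41, Mrps18b and Mrps35. Over all genes tested the medians were 22.1% and 97%, and over cytosolic ribosomal protein genes 10.1% and 20.6%. The sets were not matched for level.

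No PAP library was consistently the low one over the 78 genes, although every gene at or under the floor in a PAP library was so in animal 2. The highest PAP value was in animal 1 for 26 genes, in animal 2 for 29 and in animal 3 for 23, and the lowest for 21, 29 and 28. Mrpl24 had 237 and 253 counts in PAP of animals 1 and 2 and 24 in the deeper PAP library of animal 3, against 1149 to 1708 in Astro. Across the 78 genes, the log2 levels per kb of any 2 Astro libraries had a Pearson r of 0.983 to 0.99, those of any 2 PAP libraries 0.66 to 0.69, and those of an Astro and a PAP library 0.482 to 0.704. These correlations describe genes that share a library, exon lengths and base composition. The direction within animals was the same in all 3 for 17 genes that were higher in PAP and 25 that were lower, and mixed for 36. Over all genes tested, 12.6% were higher and 40% lower in all 3 animals. The fold change was weakly and inversely related to the Astro level across the 78 genes (r = -0.36, log2 CPM), a value in which the Astro level enters both axes.

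**Figure D5:**
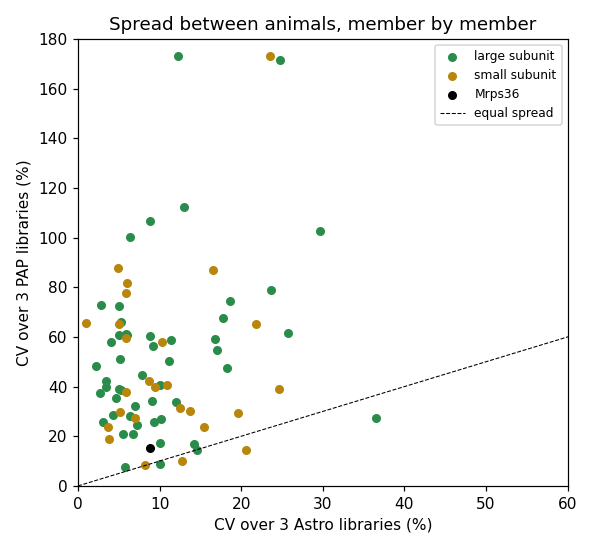
Coefficient of variation of TMM-scaled CPM over the 3 PAP libraries (vertical axis, percent) against that over the 3 Astro libraries (horizontal axis, percent) for each of the 78 genes, coloured by subunit, with the dashed line marking equal spread. All but 4 genes lie above the line, and Astro values end at 36.5% for Mrpl41 while PAP values reach 173%.

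The other genes of mitochondrial translation were read from 3 lists. Of 5 mitochondrial ribosomal proteins with other names, 0 were called higher and 1 lower, where 5.92% and 15.4% of all genes tested were. The median log2 fold change of the 5 was -0.89 (-1.13 with the replicate block). The gene called lower, Aurkaip1 of the small subunit, had 204, 219 and 228 CPM in Astro and 84.2, 97.9 and 62.5 CPM in PAP (-1.41 ± 0.34, adjusted p = 0.0295, edgeR). Dap3, a GTP-binding protein of the small subunit, had 133, 103 and 131 CPM in Astro and 172, 58.2 and 219 CPM in PAP (0.29, adjusted p = 0.796, edgeR). Ptcd3, Chchd1 and Gadd45gip1 had log2 fold changes of -0.89, -0.42 and -1.12 and were not called.

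Of 15 genes tested from a list of translation factors and related genes, among them Lrpprc, Slirp and Oxa1l, 0 were called higher and 1 lower. Of all genes, 5.92% and 15.4% were. The median was -0.65, and -1.25 with the replicate block. Within animals 1, 2 and 3 it was -0.31, -1.65 and -0.99. Gfm1, the elongation factor that moves the ribosome along the mRNA, had 191, 152 and 173 CPM in Astro and 50.5, 47.9 and 45.3 CPM in PAP (-1.84 ± 0.37, adjusted p = 0.0208, edgeR). Its PAP values were close together and far below those in Astro.

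Of 29 genes of ribosome assembly and ribosomal RNA modification, 1 was called higher and 5 lower, against the same shares of all genes. The median was -0.11, but -1.87 with the replicate block and -0.97, -2.69 and -2.41 within animals 1, 2 and 3. Among the 5 is Lyrm7, which is known as an assembly factor of respiratory complex III and not of the ribosome. C1qbp, a matrix protein that takes part in mitochondrial ribosome biogenesis, had 138, 104 and 123 CPM in Astro and 806, 484 and 519.8 CPM in PAP (2.31 ± 0.32, adjusted p = 0.0165, edgeR). Mpv17l2, an inner membrane protein of the same process, had 110.2, 132 and 111 CPM in Astro and 37.2, 28.9 and 30.7 CPM in PAP (-1.86 ± 0.44, adjusted p = 0.0282, edgeR). Of the other 4 called lower, Gtpbp10, a GTPase of large-subunit assembly, had 505, 289 and 448 counts in Astro and 0 in each PAP library. It was at least 16.4-fold lower, measured against 3 counts in each PAP library. On the same basis Mettl15, a methyltransferase of the small-subunit RNA, was at least 13.4-fold lower and Fastkd5, an RNA-processing protein, at least 6.09-fold lower. Lyrm7 had 746, 439 and 873 counts in Astro and 2, 0 and 0 in PAP (adjusted p = 0.0311, edgeR). These 4 genes passed the filter through their Astro counts alone, in libraries far deeper than those of PAP, so their calls are given as a description. The lists differed in how many genes could be read in PAP. Above the floor in all 3 PAP libraries were 5 of 5 ribosomal proteins, 7 of 15 genes of the factor list (46.7%) and 5 of 29 assembly genes (17.2%). With the replicate block, the adjusted p of C1qbp was 0.0915 and that of Gfm1 and Aurkaip1 0.206, so none of these calls was kept.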

How the data were processed

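Astro and PAP polysomal RNA of 3 mice was sequenced with 8 technical replicates per library. The authors deposited whole-number read counts per Ensembl gene. Per the submitters' processing notes, bcl2fastq 2.18.0.12, Trim Galore 0.4.1, STAR 2.5.2b, SAMtools and HTSeq 0.5.3 were used with build mm10. The annotation release and strand setting of the counting are not given in the sources used here.

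Counts of the 8 technical replicates were summed, giving 6 libraries of 1829962 to 20293538 counts. Symbols came from GENCODE M21 on GRCm38, which held 47224 of 47643 listed genes (99.12%), and promoter windows from RefSeq on GRCm38.p6 (69 of 78 members). The 5 pseudogene symbols that match were left out. Tests used edgeR 4.0.16 in R 4.3.3: filterByExpr with a minimum count of 10, TMM, glmQLFit and glmQLFTest on PAP against Astro, Benjamini-Hochberg over all 14618 genes, threshold 0.05. The printed SE is the log2 fold change divided by the square root of F. CPM per kb used exonic length. DESeq2 1.42.0 and limma 3.58.1 were alternatives, with other filters, scalings, equal depth, parts of the technical replicates and left-out libraries. The scripts were tested on simulated data.

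Genes were named if called among the 78 (at most 10 in each direction), if among the 5 highest per kb in Astro or by lowest PAP library, as the S18 relatives, or if called in a pathway list (at most 5 in each direction). Other named genes, among them the genes under the floor in a PAP library, those near the threshold, the overlapping partners, Aurkaip1, Lyrm7 and the cytosolic genes, were chosen after their values were seen or for their role. The members and lists were chosen with earlier results of these data known. The labels pair Astro and PAP by animal. The correlation of their deviations from the group means was 0.0327, 0.0185 and -0.0272 for animals 1, 2 and 3, and the fit without the block was the main one. A marker of the B and plasma cell list is not reported here.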

Additional observations from a re-analysis of the deposited data

How the results depend on the processing

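The limits included 3 animals and PAP libraries of 1829962 to 2980984 counts, where 3 counts correspond to 0.991 to 1.55 CPM. With the animal as a replicate block, 0 genes were called higher and 0 lower, so none of the 6 calls was kept in the paired fit (adjusted p 0.206 to 0.209). The log2 fold changes were then 1.67 for Mrpl30, 2.78 for Mrpl19, 2.19 for Mrps27, 1.31 for Mrpl18, -2.89 for Mrps6 and -1.41 for Mrps14, and the median was -0.37 (-1.63 over all genes). Genes called higher (4 as reported) numbered 14 with DESeq2's Wald test (11.5% of all genes), 2 with limma voom (4.13%) and 2 without a filter on low counts (2.39%), and 0 to 7 with a library left out. Genes called lower (2 as reported) numbered 7 with DESeq2's Wald test (23.6% of all genes), 1 with library-size scaling (14.7%), 1 without a filter (6.47%), 1 from technical replicates 5 to 8 (14.6%), 0 with a mean of at least 100 counts (8.19%), 0 at equal depth (8.61%), and 0 to 8 with a library left out. With limma voom and a variance weight per group, 2 were called lower (19.9%). Mrps6 and Mrps14 were not among them (adjusted p = 0.0944 and 0.149, limma voom). Mrps27 and Mrpl18 did not pass in that fit either (0.0879 and 0.0842), while Mrpl30 and Mrpl19 did (0.0232 and 0.0133). Each Astro library left out gave 0 in both directions, and a group then had 2 libraries. The median log2 fold change (-0.28) was -0.13 with library-size scaling, -0.44 without a filter, -0.08 with a mean of at least 100 counts and -0.08 at equal depth, and -0.37 to -0.18 with a library left out. The difference in share (0.0627 percentage points) was 0.172 over protein-coding counts without the cytosolic ribosome, and 0.0397 to 0.0933 with a library left out. Of 78 genes, 70 to 75 were above the count minimum in all PAP libraries under the alternatives run. In the alternatives added after seeing the data, 1 higher and 1 lower were called among the 45 genes without exon overlap, and the median was -0.09 among the 72 genes above 3 counts in every PAP library. Of 16 alternatives, the adjusted p passed in 12 for Mrpl30, 12 for Mrpl19, 8 for Mrps27, 7 for Mrpl18, 9 for Mrps6 and 5 for Mrps14, and none reversed the direction of a gene named by the rule (21 genes, each under 16 alternatives except Fastkd5 under 14, since it was not tested with a mean of at least 100 counts or at equal depth). Genes named outside the rule were not followed through all of these, and Mrpl24 went from 0.25 to -0.38 with the replicate block. The cause of these changes was not tested.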
